A study of Mus musculus with 12 samples.

Results

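The genes described here are 9 chemokine ligands of NRAS/AE9a leukemic cells, a mouse acute myeloid leukemia line: Ccl2, Ccl12, Ccl5, Ccl3, Ccl4, Ccl6, Ccl9, Cxcl2 and Pf4. They were taken by gene symbol from a table of 24589 genes, all 9 were in it, and none was under 1 TPM in any library. Levels are in TPM (transcripts per 1000000), which corrects for gene length and gives shares within 1 library. The cells had intact Tet2 (wild type, WT) or were Tet2 knockouts (KO), and had been given 5 µg/ml actinomycin D, an inhibitor of transcription, for 0, 4 or 8 h. Each of the 6 groups had 2 libraries, which makes 12. All groups were grown in RPMI 1640 with murine stem cell factor (SCF) at 50 ng/ml, IL-3 and IL-6 at 10 ng/ml, G418 at 1 mg/ml and puromycin at 2 µg/ml. The labels name no other line of either genotype, so genotype and any other difference between the lines cannot be told apart. Whether the paired libraries of a group stem from separate cultures is also unstated, so each p-value reflects library-to-library spread that may be technical alone.

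Chemokines are small secreted proteins that bind G-protein-coupled receptors on leukocytes and direct their migration. Those named CCL mostly attract monocytes, macrophages and lymphocytes, and CXCL2 attracts neutrophils. Many chemokine genes are switched on quickly through NF-κB and have mRNAs that are degraded quickly by way of AU-rich elements in the 3′ untranslated region (3′ UTR). Normal and leukemic myeloid cells are known to make them, and they act on both the leukemic cells and the marrow around them. TET2 is an enzyme that oxidises 5-methylcytosine, and the title of the series asks how it acts through mRNA on stemness and homing of leukemia cells.

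AU-rich elements of the 3′ UTRs are shown first, since they are known to bear on how long an mRNA lasts once transcription is blocked. Windows were read from GENCODE M21 annotation of GRCm38, which mm10 also names, 30 bases each, 5′ to 3′ on the strand of the gene, and the capitals mark the pentamer ATTTA of AU-rich elements. Cxcl2 had 11 such pentamers in a 3′ UTR of 734 nt, Ccl12 had 5 in 167 nt, Ccl3 had 5 in 409 nt and Ccl4 had 2 in 302 nt.
Cxcl2 (chr5:90905328-90905357, plus strand): ATTTATTTAtctatgtATTTATTTATTTAt
Ccl12 (chr11:82103325-82103354, plus strand): ATTTAaacaaacttgcttaaataatATTTA
Ccl3 (chr11:83648075-83648104, minus strand): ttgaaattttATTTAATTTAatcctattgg

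The longer element TTATTTATT occurred 4 times in Cxcl2 and in no other of the 9, against 7.36% of 10436 tested genes with a 3′ UTR that held it. At least 1 pentamer was in 8 of the 9 ligands, against 66.7% of those genes, and Ccl5 had none in 199 nt. Ccl6 had 4, Ccl9 had 5, and Ccl2 and Pf4 had 1 each. Per 1000 nt, the pentamers of Ccl12 came to 29.9 and those of Cxcl2 to 14.99, where the median of all these genes was 1.26. These are counts of letters and do not show that a factor binds.

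Of the 9 genes, 6 were in a RefSeq table of promoters (GRCm38.p6, 250 bases before to 50 after the start). Those of Cxcl2 and Ccl9 are shown because they held the NF-κB consensus, searched on both strands, which 4.51% of 32851 promoters held. In both windows of 30 bases the capitals mark the match, at positions -97 to -87 from the start in Cxcl2, where overlapping matches on the same bases make 1 run, and at -35 to -26 in Ccl9.
Cxcl2 (chr5:90903792-90903821, plus strand): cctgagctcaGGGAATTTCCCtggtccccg
Ccl9 (chr11:83578652-83578681, minus strand): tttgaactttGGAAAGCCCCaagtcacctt

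The TATA box TATAAA was in 2 of the 6 promoters, those of Ccl12 and Ccl9, against 13.6% of all promoters. The ISRE core of interferon response was in 0 of 6, against 3.44%, and the AP-1 motif TGANTCA in 1 of 6, that of Ccl9, against 7.81%. The ETS core AGGAAG was in 4 of 6, against 35.4%, and the C/EBP motif TTGCNNAA in 1 of 6, that of Pf4, against 10.8%. Ccl2, Ccl4 and Ccl5 were not in that table. Per GENCODE M21 on GRCm38, Ccl2 (chr11:82035571-82037453) and Ccl12 (chr11:82101845-82103400) lie on chromosome 11 with Ccl7 between them. Further along the chromosome follow Ccl5 (chr11:83525778-83530518), Ccl9 (chr11:83572919-83578636), Ccl6 (chr11:83587882-83593087), Ccl3 (chr11:83647844-83649355) and Ccl4 (chr11:83662584-83664683). Pf4 (chr5:90772435-90773383) and Cxcl2 (chr5:90903871-90905938) are on chromosome 5, beside Ppbp, Cxcl3 and Cxcl1. Cxcl2 shares 61 of its 1060 stretches of 50 bases with Cxcl3, so the division of reads between these 2 genes is uncertain. Ccl2 overlaps Gm17268 and Ccl6 overlaps E230016K23Rik on the opposite strand, and since the strand setting of the counting is not known here, reads of these pairs may not have been told apart.

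Sequencing depth is unknown from TPM. Libraries of a group correlated with a Pearson r of 0.991 to 0.994 across genes, while no pair from different groups exceeded 0.974. Tet2, the targeted gene, was at 13.1 and 16.0 TPM in WT and 10.2 and 10.2 TPM in KO at 0 h. After 4 h the WT libraries held 10.6 and 10.2 TPM and the KO libraries 6.42 and 5.82 TPM. After 8 h these were 5.66 and 6.46 TPM against 4.32 and 4.52 TPM. Gene-level TPM was lower in KO libraries at each time but not absent, so it checks the knockout label only weakly, and where the deletion lies was not analysed here. All 12 markers of myeloid progenitors and blasts were at 1 TPM or more in at least 2 libraries, as were 15 of 16 markers of macrophages and monocytes and 9 of 9 of neutrophils. Of the markers of T and NK cells 1 of 9 reached that level, with Cd3d, Cd3g, Ncr1 and Gzma at 0 everywhere, and of B cells 0 of 5, with Pax5 at 0 everywhere. In such bulk RNA, fewer cells that make a transcript and less of it in each cell cannot be told apart.

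Ccl6, an attractant of monocytes and macrophages that signals through Ccr1, was the most abundant of the 9 in all 6 groups. The 9 together made up 0.220% and 0.227% of the TPM of WT libraries at 0 h and 0.183% and 0.176% of KO libraries. At 8 h their sum was 0.656% and 0.685% in WT and 0.407% and 0.408% in KO. Ccl6 alone gave 49.5% to 66.6% of this sum, depending on the library. In WT cells at 0 h the order by mean TPM was Ccl6, Ccl2, Ccl9, Ccl5, Ccl3, Ccl4, Pf4, Cxcl2 and Ccl12. Neighbours in that order lay close together for Ccl5 and Ccl3 and for Ccl4 and Pf4, although no pair of neighbours overlapped. In KO cells at 0 h the order was Ccl6, Ccl9, Ccl2, Ccl3, Pf4, Ccl4, Ccl5, Cxcl2 and Ccl12, with Ccl5 at rank 7 in place of rank 4. At 8 h Ccl5 was second in WT cells and sixth in KO cells. At that time the libraries of Pf4 and Ccl3 overlapped in WT, and those of Ccl12 and Ccl4 overlapped in KO.

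**Figure D1:**
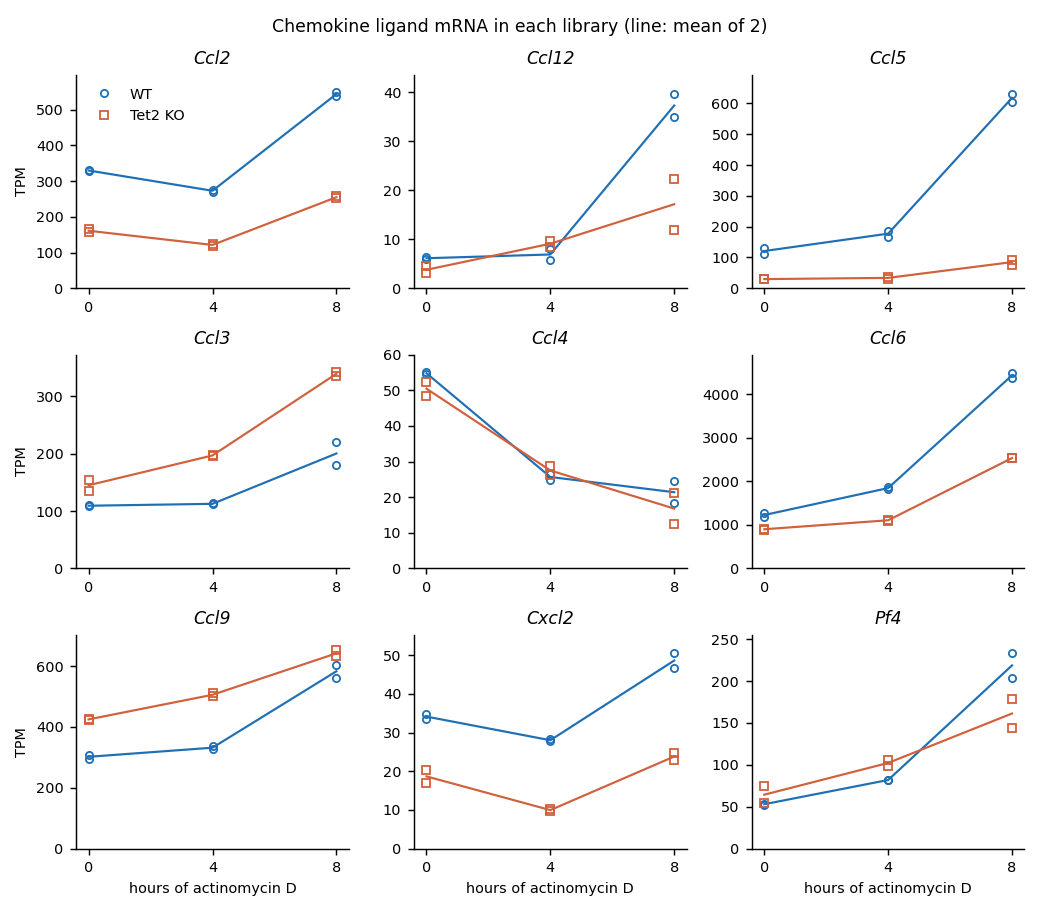
TPM (y axis, each panel with its own scale from 0) of the 9 ligands against hours of actinomycin D (x axis) in WT (circles) and Tet2 KO (squares), 1 point per library and a line through the mean of 2. Ccl5 of WT libraries lies above KO at every time, Ccl3 of KO libraries lies above WT, and Ccl4 falls in both.

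The members were chosen by measured values of these libraries: Ccl12, Ccl5 and Pf4 were selected on their gain in WT cells from 0 to 8 h, and which values led to the other 6 is not known. The p-values of these 6 may therefore depend on that choice. For Ccl12, Ccl5 and Pf4, comparisons that use WT libraries at 0 or 8 h are given as values with standard error (SE) and without a test. The change of WT from 0 to 8 h is given so for all 9. The other comparisons were tested in 1 limma model of log2(TPM + 1) over all 12 libraries and 11152 genes, with Benjamini-Hochberg adjustment and a threshold of 0.05. That scale understates changes of low genes. Since TPM are shares of a library, and the labels name no added RNA standard, changes with time are relative to the other transcripts.

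The first question was which ligands differed between Tet2 KO and WT cells before and during the block of transcription. Ccl2, Ccl6 and Cxcl2 were lower in KO cells at 0 h and Ccl3 and Ccl9 were higher, so neighbouring genes of chromosome 11 differed in opposite directions. Of the 6 genes tested at 0 h, 3 were lower, where 11.5% of all genes tested were, and 2 were higher, where 14.3% were. At 4 h, with all 9 tested, 4 were lower (Ccl5, Cxcl2, Ccl2 and Ccl6), where 13.7% of all genes were, and 2 were higher (Ccl3 and Ccl9), where 24.9% were. At 8 h, of 6 tested, 3 were lower (Ccl2, Cxcl2 and Ccl6), where 12.1% of all genes were, and 1 was higher (Ccl3), where 37.3% were. The median log2 difference of KO from WT was -0.28 over the 6 ligands tested at 0 h, 0.10 over the 9 at 4 h and -0.58 over the 6 at 8 h, beside 0.06, 0.10 and 0.20 over all genes.

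Ccl2 and Ccl12 are ligands of Ccr2 that attract monocytes. In WT cells Ccl2 stood at 330.2 and 329 TPM at 0 h, 270.3 and 275 TPM at 4 h, and 539 and 548 TPM at 8 h. In KO cells it stood at 165 and 157 TPM at 0 h, 124 and 119 TPM at 4 h, and 252 and 258 TPM at 8 h. Both KO libraries lay below both WT libraries at each time, and in both genotypes the level dipped at 4 h and was highest at 8 h. WT means were 2.05-fold, 2.25-fold and 2.13-fold those of KO at 0, 4 and 8 h. The log2 difference of KO from WT was -1.03 ± 0.06 (SE; limma adjusted p = 1.08e-07) at 0 h, -1.16 ± 0.06 (adjusted p = 3.64e-08) at 4 h and -1.09 ± 0.06 (adjusted p = 4.43e-08) at 8 h.

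Ccl12 was the least abundant of the 9 at 0 h. In WT cells it was at 6.39 and 5.89 TPM at 0 h, 8.10 and 5.71 TPM at 4 h, and 34.9 and 39.8 TPM at 8 h. In KO cells it was at 4.49 and 3.07 TPM at 0 h, 8.44 and 9.76 TPM at 4 h, and 11.97 and 22.4 TPM at 8 h. KO libraries were below WT at 0 h and 8 h but above WT at 4 h, and the 2 KO libraries at 8 h differed by more than those of any other group of this gene. The KO difference at 4 h was 0.37 ± 0.24 on the log2 scale and did not pass (limma adjusted p = 0.255), with an adjusted p of 0.116 to 0.745 over the 21 alternatives. It was -0.59 ± 0.24 at 0 h and -1.14 ± 0.24 at 8 h, not tested.

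Ccl5, Ccl3 and Ccl4 are inflammatory chemokines that attract monocytes and T cells, and Ccl5 and Ccl3 bind Ccr1. Of the 9, Ccl5 had the widest gap between the genotypes as a log2 difference at each time, while in TPM the gap of Ccl6 was wider. WT libraries were at 129 and 113 TPM at 0 h, 187 and 168 TPM at 4 h, and 605 and 631 TPM at 8 h. KO libraries were at 29.6 and 30 TPM at 0 h, 37.5 and 30.2 TPM at 4 h, and 93.2 and 76.7 TPM at 8 h, so that even at 8 h they stayed below WT cells at 0 h. At 4 h the KO difference was -2.36 ± 0.12 on the log2 scale (limma adjusted p = 3.64e-08), and 0.251% of all genes tested had a lower value. It was -1.98 ± 0.12 at 0 h and -2.85 ± 0.12 at 8 h, not tested. These values, and the rank of Ccl5 at 0 and 8 h, use the WT libraries by which it was selected.

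Ccl3 went the other way. In WT cells Ccl3 was at 110 and 108 TPM at 0 h, 111 and 114 TPM at 4 h, and 179.7 and 220.7 TPM at 8 h. In KO cells it was at 154 and 135 TPM at 0 h, 195 and 198 TPM at 4 h, and 343 and 335 TPM at 8 h, above both WT libraries at each time. The log2 difference was 0.40 ± 0.09 (limma adjusted p = 0.00627) at 0 h, 0.80 ± 0.09 (adjusted p = 4.19e-05) at 4 h and 0.76 ± 0.09 (adjusted p = 2.25e-05) at 8 h. The call at 0 h was lost without the first KO library of 0 h (0.31, adjusted p = 0.0804) and with scaling to housekeeping genes (0.27, adjusted p = 0.0523).

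Ccl4, the neighbour of Ccl3 on the opposite strand, was nearly level between the genotypes. WT libraries were at 54.6 and 55.0 TPM at 0 h, 24.8 and 26.5 TPM at 4 h, and 18.4 and 24.4 TPM at 8 h. KO libraries were at 52.4 and 48.5 TPM at 0 h, 26.3 and 28.7 TPM at 4 h, and 12.5 and 21.1 TPM at 8 h. The groups overlapped at 4 h and 8 h, and the log2 differences of -0.12 ± 0.19 at 0 h (limma adjusted p = 0.699), 0.10 ± 0.19 at 4 h (adjusted p = 0.718) and -0.36 ± 0.19 at 8 h (adjusted p = 0.129) did not pass. The last did pass without the second KO library of 8 h (-0.71, adjusted p = 0.00216) and under both scalings, -0.64 and -0.75 with adjusted p of 0.0227 and 0.00901.

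Ccl6 and Ccl9 are related ligands of Ccr1 made by myeloid cells. For Ccl6, WT libraries were at 1188 and 1263 TPM at 0 h, 1866 and 1823 TPM at 4 h, and 4370.4 and 4492 TPM at 8 h. KO libraries were at 906 and 892 TPM at 0 h, 1096 and 1113 TPM at 4 h, and 2534 and 2533 TPM at 8 h, below WT at each time. The log2 difference was -0.45 ± 0.05 (limma adjusted p = 6.14e-05) at 0 h, -0.74 ± 0.05 (adjusted p = 7.41e-07) at 4 h and -0.81 ± 0.05 (adjusted p = 1.84e-07) at 8 h.

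Ccl9 had the opposite sign. WT libraries were at 295 and 309 TPM at 0 h, 337 and 326 TPM at 4 h, and 561 and 605 TPM at 8 h. KO libraries were at 425 and 424 TPM at 0 h, 511 and 500.2 TPM at 4 h, and 652 and 632 TPM at 8 h. KO lay above WT at each time, by a narrow margin at 8 h. The log2 difference was 0.49 ± 0.06 (limma adjusted p = 7.07e-05) at 0 h, 0.61 ± 0.06 (adjusted p = 1.16e-05) at 4 h and 0.14 ± 0.06 (adjusted p = 0.0656) at 8 h. The direction at 8 h turned with the scaling, to -0.15 (adjusted p = 0.0247) with median-ratio scaling and -0.27 (adjusted p = 0.00129) with housekeeping scaling. It passed as a gain without the first (adjusted p = 0.0305) or second (0.0306) WT library of 0 h, or the second of 8 h (0.0325).

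Cxcl2, a neutrophil attractant that binds Cxcr2, was lower in KO cells. WT libraries were at 33.4 and 34.8 TPM at 0 h, 27.8 and 28.2 TPM at 4 h, and 46.6 and 50.6 TPM at 8 h. KO libraries were at 20.3 and 17.0 TPM at 0 h, 10.2 and 9.69 TPM at 4 h, and 24.7 and 22.9 TPM at 8 h. No KO library reached a WT library of the same time. The log2 difference was -0.84 ± 0.10 (limma adjusted p = 7.23e-05) at 0 h, -1.41 ± 0.10 (adjusted p = 8.51e-07) at 4 h and -1.001 ± 0.10 (adjusted p = 5.56e-06) at 8 h.

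Pf4 (also called Cxcl4) is stored in platelet granules and binds heparin and other proteoglycans. WT libraries were at 53.4 and 52.5 TPM at 0 h, 81.3 and 82.3 TPM at 4 h, and 203 and 234 TPM at 8 h. KO libraries were at 74.4 and 54.2 TPM at 0 h, 106 and 98.7 TPM at 4 h, and 144 and 179 TPM at 8 h. KO lay above WT at 0 h and 4 h and below it at 8 h. At 4 h the difference of 0.32 ± 0.14 on the log2 scale did not pass (limma adjusted p = 0.0825). It did pass in a fit of the compared groups alone (adjusted p = 0.00671) and without the first (0.0350) or second (0.0347) KO library of 0 h. It was 0.26 ± 0.14 at 0 h and -0.44 ± 0.14 at 8 h, not tested.

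**Figure D2:**
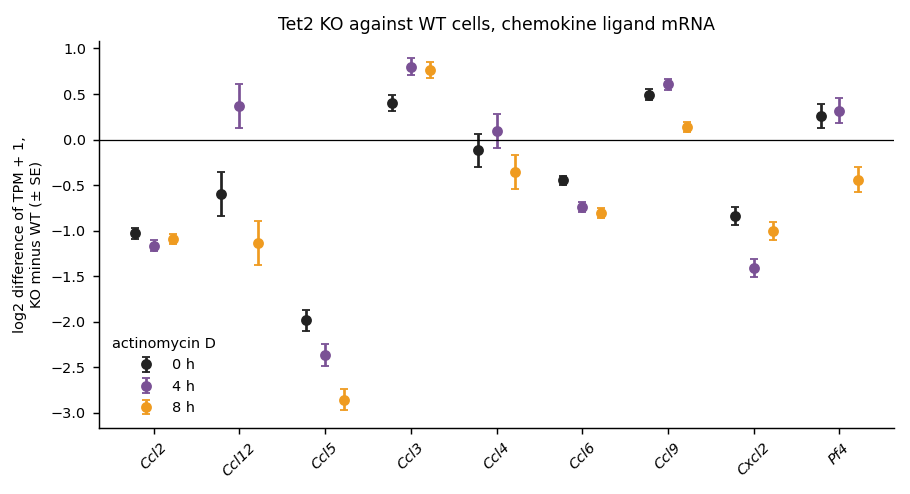
Log2 difference of TPM + 1 of Tet2 KO from WT cells (y axis, ± SE) for each ligand (x axis) at 0, 4 and 8 h of actinomycin D. Ccl5 lies lowest at all 3 times, at -1.98, -2.36 and -2.85, and Ccl3 lies above 0 at all 3. The values of Ccl5 at 0 and 8 h are descriptions without a test.

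Markers of other cell states also differed between the genotypes. The summed TPM of the 16 macrophage and monocyte markers, mostly Lyz2, was 25220 and 28140 in WT libraries at 0 h and 10760 and 10510 in KO libraries. At 8 h it was 59030 and 64140 in WT and 27030 and 26560 in KO. Of these 16 markers, 12 had both KO libraries below both WT libraries at 0 h, as Csf1r did with 150.3 and 184 TPM in WT and 61.6 and 62.4 TPM in KO. The 1 marker with both above was Adgre1, at 269 and 289 TPM in WT and 354 and 345 TPM in KO. C1qa and Marco were at or under 1.17 TPM in every library, and C1qb reached 8.95 TPM. The 11 markers of mast cells and basophils summed to 1147 and 1273 TPM in WT and 3574 and 3393 TPM in KO at 0 h, of which Cpa3 gave 911 and 1005 TPM in WT and 3216 and 3042 TPM in KO. This list was split: 5 of the 11 lay higher in both KO libraries and 5 lower, among the latter Tpsb2, at 51.6 and 65.6 TPM in WT and 14.4 and 10.6 TPM in KO, and Cma1, at 25.3 and 26.2 TPM against 1.81 and 1.96 TPM. The 12 megakaryocyte markers summed to 33.0 and 35.1 TPM in WT and 72.8 and 71.1 TPM in KO at 0 h, and 6 of them reached 1 TPM in at least 2 libraries. Of all 12, 5 were higher and 4 lower in both KO libraries at 0 h. These counts include Gp1bb, higher, and Tubb1 and Clec1b, lower, which did not reach that level. Treml1, also lower, was under 1 TPM at 0 h. Of the 12 markers, Gp1bb, Gp9, Gp6 and Tubb1 were at or under 0.63 TPM in every library. The 9 neutrophil markers, mostly S100a8 and S100a9, summed to 85750 and 60230 TPM in WT and 39390 and 38800 TPM in KO at 0 h, all 9 lower in both KO libraries. The part of such cell states in the differences of the ligands was not tested.

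The second question was what became of each mRNA once transcription was blocked. In KO cells, where all 9 genes were tested, every ligand but Ccl4 had a higher TPM at 8 h than at 0 h, while the median of all genes tested fell by 1.16 on the log2 scale. Thus 8 of 9 were higher, where 9.54% of all genes were, and 1 was lower, where 75.4% were. The median of the 9 was 1.22. From 0 to 4 h, 5 were higher (Ccl12, Pf4, Ccl3, Ccl6 and Ccl9), where 4.88% of all genes were, and 3 were lower (Ccl4, Cxcl2 and Ccl2), where 68.0% were. From 4 to 8 h, 8 were higher, where 8.97% of all genes were, and Ccl4 was lower, where 43.1% of all genes were. All of these comparisons share libraries, and changes from 0 to 8 h and from 4 to 8 h share those of 8 h. Ccl12, Ccl5 and Pf4 were selected on their gain from 0 to 8 h of the same treatment in WT cells. The 9 are therefore not an independent sample of genes, and the shares and medians of all genes stand beside them as a description. Apart from these selected genes, Ccl2, Ccl3, Ccl6, Ccl9 and Cxcl2 were higher in KO cells at 8 h than at 0 h, and Ccl4 was lower.

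Of the monocyte attractants, Ccl12 rose by 1.09 ± 0.24 on the log2 scale from 0 to 4 h (limma adjusted p = 0.00136) and by 1.88 ± 0.24 from 0 to 8 h (adjusted p = 9.89e-06) in KO cells. Its step from 4 to 8 h, 0.79 ± 0.24 (adjusted p = 0.0161), was lost without the second KO library of 8 h (0.36, adjusted p = 0.194), without the first of 4 h (0.69, adjusted p = 0.0887), without the filter (adjusted p = 0.0589) and in a fit of the compared groups alone (adjusted p = 0.0728). Ccl2 fell by 0.41 ± 0.06 from 0 to 4 h (adjusted p = 3.46e-05) and then rose by 1.07 ± 0.06 from 4 to 8 h (adjusted p = 5.63e-08). At 8 h KO cells held 158% of its TPM at 0 h.

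Ccl5 changed by 0.17 ± 0.12 on the log2 scale from 0 to 4 h in KO cells (limma adjusted p = 0.211) and rose by 1.31 ± 0.12 from 4 to 8 h (adjusted p = 2.09e-06). The former passed under median-ratio scaling (1.06, adjusted p = 5.72e-05) and without the second KO library of 4 h (0.32, adjusted p = 0.0434). Ccl3 rose by 0.44 ± 0.09 by 4 h (adjusted p = 0.000779) and by 1.22 ± 0.09 by 8 h (adjusted p = 5.04e-08). Ccl4 fell by 0.85 ± 0.19 by 4 h (adjusted p = 0.00115) and by 1.57 ± 0.19 by 8 h (adjusted p = 4.13e-06), to 33.3% of its TPM at 0 h. With median-ratio scaling the change by 4 h turned to 0.056 (adjusted p = 0.812). Its change by 8 h differed from the median of all genes by -0.41. With median-ratio scaling, which brings that median from -1.16 to -0.02, the change by 8 h was -0.17 (adjusted p = 0.438). The step of Ccl4 from 4 to 8 h, -0.72 ± 0.19 (adjusted p = 0.00583), was lost with that scaling (-0.23, adjusted p = 0.368), without the first KO library of 8 h (-0.37, adjusted p = 0.0611) and in a fit of the compared groups alone (adjusted p = 0.0538).

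Ccl6 rose by 0.30 ± 0.05 by 4 h (limma adjusted p = 0.000209) and by 1.49 ± 0.05 by 8 h (adjusted p = 1.58e-10), to 282% of its TPM at 0 h. Ccl9 rose less, by 0.25 ± 0.06 by 4 h (adjusted p = 0.00186) and 0.60 ± 0.06 by 8 h (adjusted p = 7.13e-07), and the value at 4 h was 0.09 (adjusted p = 0.123) with housekeeping scaling. Pf4 rose by 0.68 ± 0.14 by 4 h (adjusted p = 0.000594) and by 1.32 ± 0.14 by 8 h (adjusted p = 1.04e-06). Cxcl2 fell by 0.84 ± 0.10 by 4 h (adjusted p = 7.73e-06), to 53.3% of its TPM, and rose by 1.18 ± 0.10 from 4 to 8 h (adjusted p = 1.50e-06), the same dip and return as Ccl2. Its net gain by 8 h of 0.34 ± 0.10 (adjusted p = 0.00706) was lost without the second KO library of 0 h (0.22, adjusted p = 0.112), without the first of 8 h (0.29, adjusted p = 0.0529) and with housekeeping scaling (0.12, adjusted p = 0.221). The falls of Ccl2 and Cxcl2 by 4 h, like the gains of other ligands, are relative to the total. With median-ratio scaling, which assumes that most genes stay level, the values of Ccl2 and Cxcl2 were 0.52 and 0.03.

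In WT cells from 0 to 4 h, 2 of the 6 genes tested were higher (Ccl6 and Ccl9), where 6.77% of all genes were, and 3 were lower (Ccl4, Ccl2 and Cxcl2), where 71.0% were. Ccl6 rose by 0.59 ± 0.05 on the log2 scale (limma adjusted p = 4.50e-07). Ccl4 fell by 1.07 ± 0.19 (adjusted p = 0.000180) and Ccl2 fell by 0.27 ± 0.06 (adjusted p = 0.000836), while Ccl3 differed by 0.04 ± 0.09 (adjusted p = 0.678). Cxcl2 fell by 0.28 ± 0.10 (adjusted p = 0.0236), a call lost without the second WT library of 0 h (adjusted p = 0.0834) or the first (0.0916) or second (0.0693) of 4 h, and in a fit of the compared groups alone (0.0603). Ccl9, at 0.14 ± 0.06 (adjusted p = 0.0494), lost its call with the same direction in 13 of 21 alternatives, with adjusted p up to 0.248, among them each of the 9 that leave out the first WT library of 0 h, either WT library of 4 h or any KO library. In 1 more, housekeeping scaling, it lost the call and turned to -0.051 (adjusted p = 0.362). With median-ratio scaling the values of Ccl2 and Cxcl2 turned to 0.74 and 0.70, and that of Ccl4 was -0.08 (adjusted p = 0.742), while Ccl3 passed at 1.046 (adjusted p = 1.92e-06). Not tested, Ccl12 changed by 0.13 ± 0.24, Ccl5 by 0.55 ± 0.12 and Pf4 by 0.62 ± 0.14.

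By 8 h in WT cells, 8 of the 9 had a higher TPM than at 0 h and Ccl4 a lower one, where 13.1% of all genes tested lay above 0. This is the comparison that had singled out members, and its values are a description. They were 2.42 ± 0.24 for Ccl12, 2.35 ± 0.12 for Ccl5, 2.02 ± 0.14 for Pf4, 1.85 ± 0.05 for Ccl6, 0.95 ± 0.06 for Ccl9, 0.86 ± 0.09 for Ccl3, 0.72 ± 0.06 for Ccl2, 0.50 ± 0.10 for Cxcl2 and -1.33 ± 0.19 for Ccl4. In means of TPM, Ccl12 was 6.08-fold and Ccl5 5.11-fold its level at 0 h in WT, against 4.54-fold and 2.85-fold in KO. Both genes were selected on this WT gain, so their larger fold in WT is not read as a genotype difference. Ccl3, the only ligand with the larger fold in KO, was 1.83-fold in WT and 2.34-fold in KO. The median of all genes fell by 1.40, so Ccl4 kept close to that median and the other 8 stood above it.

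**Figure D3:**
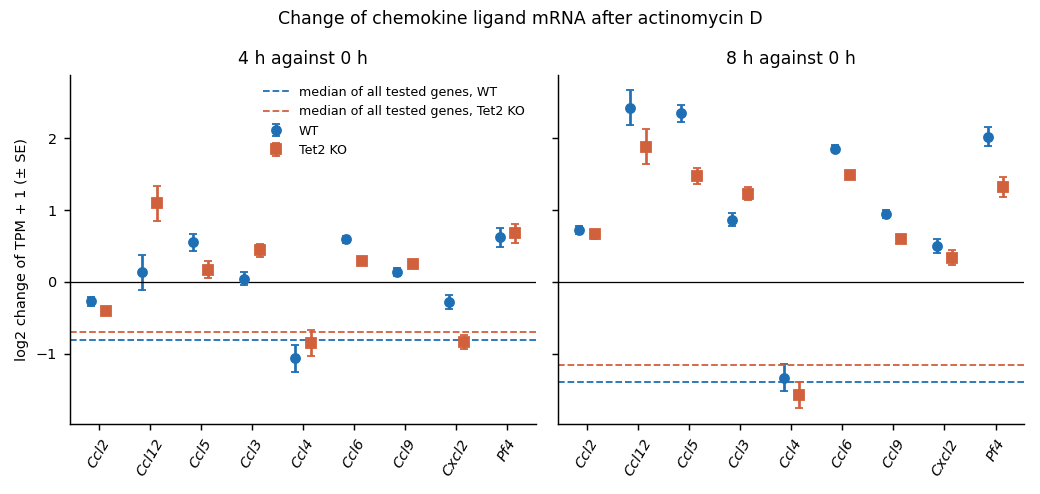
Log2 change of TPM + 1 (y axis, ± SE) from 0 h to 4 h (left) and to 8 h (right) for each ligand (x axis) in WT (circles) and Tet2 KO cells (squares), with dashed lines at the median of all genes tested. At 8 h each ligand but Ccl4 lies above 0 in both genotypes, while the medians lie at -1.40 and -1.16.

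Whether these changes differed between the genotypes was tested from 0 to 4 h for 6 genes. With limma 0 of 6 passed in either direction, where 0.0538% of all genes passed higher and 0.296% lower, and 3 of the 6 had an unadjusted p under 0.05. They were Cxcl2 at -0.56 ± 0.14 (adjusted p = 0.112), Ccl6 at -0.29 ± 0.07 (adjusted p = 0.112) and Ccl3 at 0.40 ± 0.13 (adjusted p = 0.179), each as KO minus WT of the log2 change. With median-ratio scaling Cxcl2 passed at -0.67 (adjusted p = 0.0291) and Ccl6 at -0.37 (adjusted p = 0.0404), and Ccl6 also passed without the second WT library of 0 h (-0.34, adjusted p = 0.0307). By 8 h the same difference, as a description, was -0.87 ± 0.16 for Ccl5, -0.70 ± 0.19 for Pf4, -0.54 ± 0.34 for Ccl12, -0.36 ± 0.07 for Ccl6 and -0.35 ± 0.08 for Ccl9. It was -0.24 ± 0.26 for Ccl4, -0.16 ± 0.14 for Cxcl2, -0.06 ± 0.08 for Ccl2 and 0.36 ± 0.13 for Ccl3. This difference contains the WT change by which Ccl12, Ccl5 and Pf4 were selected, and nothing is read from its signs.

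Ratios of 2 mRNAs inside a library do not depend on how libraries are scaled. The ratio of Ccl3 to Ccl4 in WT libraries went from 2.01 and 1.97 before treatment to 4.49 and 4.28 after 4 h, then to 9.79 and 9.04 after 8 h. In KO it was 2.95 and 2.79, then 7.43 and 6.90, then 27.4 and 15.9. The 2 neighbouring genes thus moved apart at each step in both genotypes. The ratio of Ccl6 to Ccl9 was 4.03 and 4.09 in WT at 0 h and 7.79 and 7.43 at 8 h, against 2.13 and 2.10 in KO at 0 h and 3.89 and 4.01 at 8 h. In KO that ratio was still 2.15 and 2.23 at 4 h, where WT had reached 5.54 and 5.59. The ratio of Ccl5 to Ccl3 was 1.18 and 1.04 in WT and 0.192 and 0.222 in KO at 0 h. That of Ccl2 to Ccl12 was 51.7 and 55.9 in WT and 36.7 and 51.2 in KO at 0 h. By 8 h it was 15.4 and 13.8 in WT and 21.03 and 11.5 in KO, and the genotypes overlapped. Ccl5 and Ccl12 were selected on their gain in WT from 0 to 8 h. Nothing is read from the ratios that hold them in WT libraries of 0 or 8 h.

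**Figure D4:**
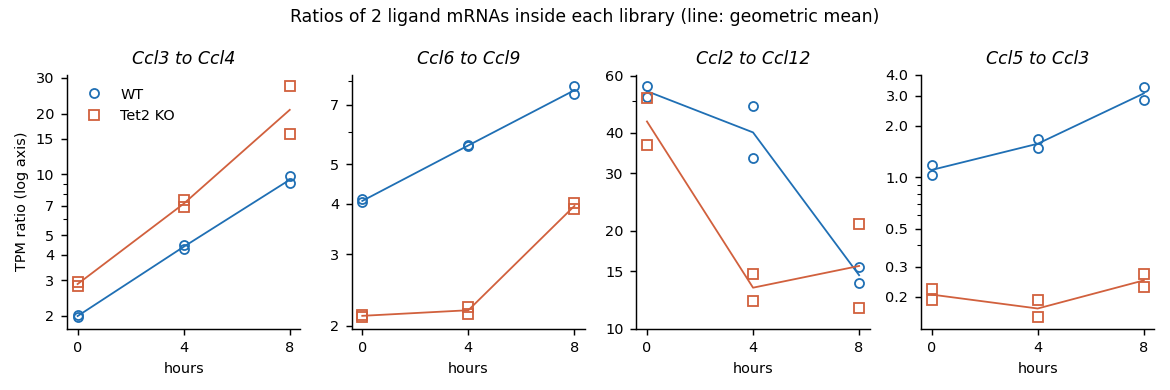
Ratios of TPM of 2 ligands inside each library (y axis, log scale) against hours of actinomycin D (x axis), WT as circles and Tet2 KO as squares, lines through the geometric mean of 2 libraries. Ccl3 to Ccl4 rises from about 2.01 to 9.79 in WT, and Ccl5 to Ccl3 lies above 1 in WT and below 0.3 in KO at each time. Ratios with Ccl5 or Ccl12 in WT at 0 and 8 h use the libraries by which these 2 genes were selected.

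Across the 12 libraries the ligands fell into different patterns. As descriptions over the same 12 libraries, which share genotype, time and scaling, Pearson r of log2(TPM + 1) was 0.97 between Ccl2 and Cxcl2, 0.95 between Ccl5 and Ccl2, 0.94 between Ccl3 and Ccl9 and 0.93 between Ccl12 and Pf4. It was -0.05 between Ccl2 and Ccl3, and negative between Ccl4 and each other ligand. Ccl12, Ccl5 and Pf4 were selected on their gain in WT from 0 to 8 h, and those libraries enter each r. Their values, and the genes closest to them, therefore partly restate that selection. Of 7676 genes with a mean of at least 5 TPM, the closest to Ccl5 were Anxa4, Tpsb2 and Ms4a6d (0.99 each) and the closest to Ccl6 were Ftl1, H2-K1 and Mfge8 (0.99 to 1.00). The closest to Ccl2 were Plaur, Slc6a8 and LOC100038947 (0.99), and to Cxcl2 Cd300lf, Ccl2 and Slc6a8 (0.97 to 0.98). Ccl3 was most like Glb1, Lat2 and Anxa6 (0.96 to 0.97), and Ccl9 most like Crisp1, Anxa6 and Adgre1 (0.97 to 0.98). Ccl12 was most like Rnasek, Procr and Il2rg (0.94), Pf4 most like Cd63, Spp1 and Pdzk1ip1 (0.97 to 0.98), and Ccl4 most like Pdf, Pskh1 and Rab43 (0.98 to 0.99).

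Of 32 other chemokine ligands, 12 passed the filter of at least 1 TPM in at least 2 libraries. At 4 h, 6 of these 12 were lower in KO than in WT, where 13.7% of all genes were, and 1 was higher, where 24.9% were, and their median was -0.83 beside 0.10 over all genes. At 0 h, 5 were lower, where 11.5% of all genes were, and 1 was higher, where 14.3% were, and the median was -0.39. Cxcl3, the near relative of Cxcl2, was at 60.9 and 54.1 TPM in WT and 24.1 and 25.6 TPM in KO at 4 h, a log2 difference of -1.18 ± 0.08 (limma adjusted p = 8.98e-07). Unlike Cxcl2, it did not dip at 4 h in WT: it was at 24.9 and 25.2 TPM at 0 h, and the ratio of Cxcl2 to Cxcl3 went from 1.35 and 1.38 at 0 h to 0.456 and 0.522 at 4 h. Ccl7, the gene between Ccl2 and Ccl12, was at 188 and 172 TPM in WT and 60.5 and 84.2 TPM in KO at 4 h (-1.32 ± 0.12, adjusted p = 7.39e-06). Cxcl16 (-2.05 ± 0.17, adjusted p = 2.49e-06) and Ccl22 (-2.45 ± 0.25, adjusted p = 1.60e-05) were also lower, at levels of at most 15.3 TPM at 4 h. Ppbp, a platelet chemokine beside Pf4, was the 1 of the 12 that was higher, at 11.4 and 9.70 TPM in KO and 4.10 and 4.35 TPM in WT (1.14 ± 0.17, adjusted p = 0.000290). From 0 to 8 h in KO cells, 4 of the 12 rose, where 9.54% of all genes did, and 2 fell, where 75.4% did, the median being 0.25. With median-ratio scaling, which brings the median of all genes to -0.02, 6 were higher and 0 lower. The shares of all genes given here are those without that scaling.

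Chemokine receptors, through which the ligands act, were read beside them. Of 23 receptors, 8 passed the filter. From 0 to 8 h in KO cells all 8 were lower, a direction that 75.4% of all genes shared. Their median was -2.68 beside -1.16 over all genes, and with median-ratio scaling 6 were lower. The 75.4% of all genes is the share without that scaling. Cxcr2, the receptor of Cxcl2, went from 81.6 and 77.0 TPM to 10.9 and 10.3 TPM in KO (-2.79 ± 0.13, limma adjusted p = 8.39e-10). Ccr1, a receptor of Ccl3, Ccl5, Ccl6 and Ccl9, went from 178 and 173 TPM to 11.2 and 11.6 TPM (-3.83 ± 0.09, adjusted p = 1.26e-11). Ccr2, the receptor of Ccl2 and Ccl12, changed by -2.56 ± 0.10 (adjusted p = 4.22e-10). Cxcr4, the receptor of Cxcl12 in homing, changed by -4.27 ± 0.14 (adjusted p = 1.33e-10). Ccrl2, which binds chemerin and does not signal as the others do, changed by -0.52 ± 0.19 (adjusted p = 0.0198), and its call was lost without the first KO library of 0 h (adjusted p = 0.200) or of 8 h (adjusted p = 0.192) and in a fit of the compared groups alone (adjusted p = 0.0807). With median-ratio scaling Ccrl2 turned to 0.15 (adjusted p = 0.5). Between genotypes at 4 h, 4 of the 8 were lower in KO, among them Cxcr4, Ccr1 and Ccrl2, where 13.7% of all genes were, and 2 were higher (Cxcr2 and Ccr2), where 24.9% were. Leaving out any 1 library gave 3 to 4 lower and 2 higher.

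**Figure D5:**
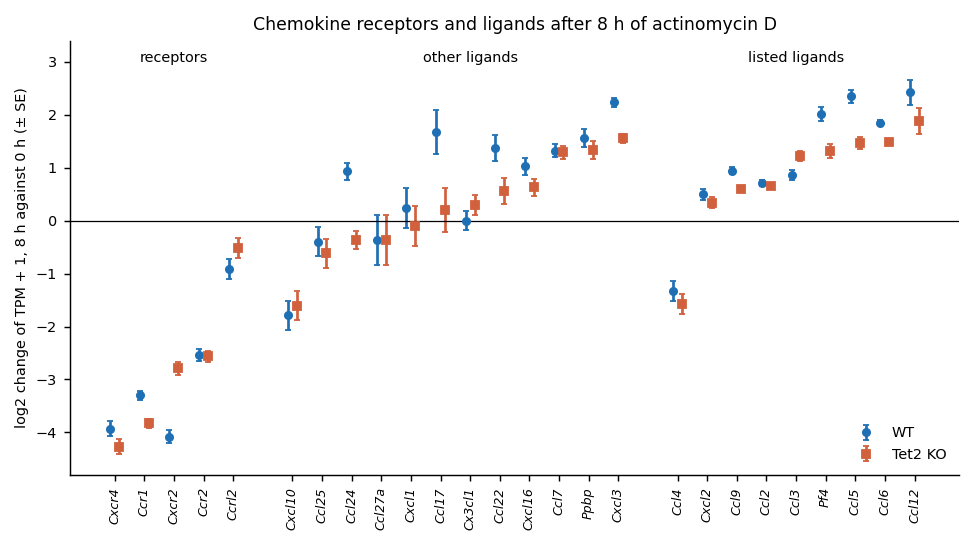
Log2 change of TPM + 1 from 0 to 8 h (y axis, ± SE) of 5 chemokine receptors (those with the smallest p for KO against WT at 4 h), the 12 other ligands and the 9 listed ligands that passed the filter (x axis) in WT (circles) and Tet2 KO cells (squares). These 5 receptors lie below 0, and the listed ligands lie above 0 except Ccl4.

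Lists of genes that share regulators or partners with chemokines were set beside them. Like the lists of other ligands and of receptors, they were chosen with earlier results of these data known, so their counts are descriptions. Of 18 inflammatory genes induced through NF-κB, 13 were lower in KO than in WT at 4 h, where 13.7% of all genes were, and 1 was higher, where 24.9% were. Their median was -0.66, and without any 1 library 10 to 13 were lower. Ier3 (-1.10 ± 0.07, limma adjusted p = 5.91e-07), Nfkbia (-1.40 ± 0.13, adjusted p = 8.27e-06), Tnf (-1.21 ± 0.12, adjusted p = 1.17e-05) and Zfp36 (-1.04 ± 0.10, adjusted p = 1.53e-05) had the smallest p. Tnf encodes an inflammatory cytokine, Nfkbia an inhibitor of NF-κB, and Zfp36 a protein that binds AU-rich elements and promotes decay of mRNAs that carry them. From 0 to 8 h in KO cells, 12 of the 18 were lower, where 75.4% of all genes were, and 1 was higher, where 9.54% were, so these counts are near those of genes in general. The median was -0.95 beside -1.16 over all genes, and with median-ratio scaling 7 were lower and 4 higher. The 75.4% and 9.54% of all genes are shares without that scaling. Of 25 interferon-stimulated genes, 24 passed the filter, and at 4 h 24 of these were lower in KO and 0 higher, beside the same 13.7% and 24.9% of all genes, and their median was -1.33. Irf7, an inducer of interferon genes, differed by -3.31 ± 0.14 (adjusted p = 1.56e-08). Of 12 proteoglycan genes and enzymes that build the chains chemokines bind, 5 were higher in KO at 4 h, where 24.9% of all genes were, and 2 lower, where 13.7% were, and the median of 0.09 was close to the 0.10 of all genes. Without the second WT library of 4 h 2 were higher, with Hs2st1 among the calls lost (0.41, adjusted p = 0.0649), and without the second KO library of 4 h 3 were. Srgn, the proteoglycan of myeloid granules that holds Pf4, was at 2331 and 2285 TPM in KO and 1922 and 1752 TPM in WT at 4 h (0.33 ± 0.07, adjusted p = 0.00349). Cd44, a hyaluronan receptor, was lower (-0.76 ± 0.09, adjusted p = 5.67e-05).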

How the data were processed

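RNA was measured in 12 libraries, 2 in each of 6 groups. Extraction used TRIzol and a stranded mRNA kit, with paired-end sequencing, per the labels' protocols. The authors deposited TPM per gene. STAR, RSEM and mm10 are named, without versions, in the submitters' processing notes. The annotation and strand setting are not stated in the labels. Each column summed to 1000000, so depth is unknown and no counting interval was given.

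The deposited TPM were transformed to log2(TPM + 1), and 11152 genes passed a filter of 1 TPM or more in 2 or more libraries. The limma 3.58.1 model in R 4.3.3 had 1 mean per group, 6 residual degrees of freedom and a trended empirical Bayes variance, and was tested on simulated data. Errors are standard errors. Adjusted p are Benjamini-Hochberg values over all genes tested, with a threshold of 0.05. Gene positions and 3′ UTRs came from GENCODE M21 by symbol (9 of 9 ligands, 97.3% of genes tested), and promoters from RefSeq on GRCm38.p6 (6 of 9). The members and lists were chosen with earlier results of these data known. Genes named from a list are among its 4 smallest p for KO against WT at 4 h, and Ppbp and Ccr2 as neighbour or receptor of a ligand. Some items are not reported here. Genes most like a ligand were the 3 with the highest Pearson r among named genes with a mean of at least 5 TPM, without symbols of the Gm and Rik series. Alternatives were 2 pseudocounts (0.1 and 0.5), 2 filters, 2 scalings, no trend, a replicate block, a separate fit of only the groups compared, and omission of each library in turn. Applying them to the lists was chosen after seeing the data.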

Additional observations from a re-analysis of the deposited data

Results flagged for a closer look

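In a limma test of the difference itself, the change from 0 to 4 h differed between genotypes for 1 of the 12 other chemokine ligands tested. It also differed for 4 of the 18 genes induced through NF-κB, and both lists were chosen with earlier results of these data known. All 5 were lower, where 0.296% of all genes tested were. As KO minus WT of the log2 change, Cxcl3 was at -0.80 (limma adjusted p = 0.0167): it rose in WT from 24.9 and 25.2 TPM to 60.9 and 54.1 TPM and in KO from 19.5 and 18.5 TPM to 24.1 and 25.6 TPM. Ier3 was at -0.79 (adjusted p = 0.0123), Nfkbia at -0.997 (adjusted p = 0.0451), Tnf at -1.01 (adjusted p = 0.0239) and Zfp36 at -0.98 (adjusted p = 0.0167), all 4 falling further in KO. These calls rest on few libraries: for each of the 5 genes, leaving out either KO library of 0 h, among others, gave an adjusted p over 0.05, the highest being 0.0939 for Cxcl3, 0.0677 for Ier3, 0.196 for Nfkbia, 0.129 for Tnf and 0.0841 for Zfp36. With the replicate number as a block Nfkbia also lost its call (adjusted p = 0.0687). The direction was the same in all of these fits.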

How the results depend on the processing

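For the 60 tested results of the ligands and 21 alternatives, 1202 of 1260 values kept their direction and side of the threshold, 32 lost the call, 15 gained one and 11 changed sign. For results not tested, 568 of 630 stayed within 1 SE, 56 moved and 6 changed sign. The count of ligands called in WT from 0 to 4 h was 5, was 3 when only the groups compared were fitted, and ranged from 3 to 5 without 1 library. That of the genotype difference of this change was 0, with 2 under median-ratio scaling and 0 to 1 without 1 library. The count of ligands above 0 in the genotype difference from 0 to 8 h was 1, and 1 to 2 without 1 library. Of all genes tested, 67.8% lay above 0. That difference holds the WT change by which Ccl12, Ccl5 and Pf4 were selected, so nothing is read from this count. Median-ratio scaling assumes that most genes stay level, for which a block of transcription gives no ground. It moves the median of all genes from -1.16 to -0.02 for KO at 8 h against 0 h. It turned the log2 change from 0 to 4 h in KO to 0.52 for Ccl2, 0.056 for Ccl4 and 0.028 for Cxcl2, and in WT to 0.74 for Ccl2 and 0.70 for Cxcl2. It also gave Ccl4 0.33 in WT at 8 h, and Pf4 -0.019 for the genotype difference from 0 to 4 h. KO against WT turned to -0.001 for Ccl4 at 4 h and -0.15 for Ccl9 at 8 h with that scaling, and to -0.011 and -0.27 with housekeeping scaling. The latter also turned WT from 0 to 4 h to -0.031 for Ccl12, -0.14 for Ccl3 and -0.051 for Ccl9. Without 1 library, Ccl12 in WT from 0 to 4 h ranged from -0.089 to 0.35. The genotype difference ranged from -0.17 to 0.28 for Pf4 from 0 to 4 h and from -0.59 to 0.11 for Ccl4 from 0 to 8 h. Of genes outside the 9, with median-ratio scaling the change of KO from 0 to 8 h turned to 0.15 for Ccrl2, 0.48 for Cd44, 0.39 for Hs2st1, 1.24 for Irf7, 0.89 for Oas1a and 0.65 for Oas3, and without 1 library Irf7 ranged from -0.276 to 0.175. Beyond the construction of the scalings, the cause was not tested.

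No pairing of libraries by replicate number was seen: deviations of libraries with the same number correlated with r of -0.08 to 0.05 over 15 pairs of groups. Whether libraries with the same number share a culture or batch is not stated. With the number as a replicate block, 8 of the 9 ligands were still higher in KO at 8 h, and of the calls of the 9 ligands 1 was lost, that of Ccl9 in WT from 0 to 4 h (0.14, limma adjusted p = 0.0667). Of the named genes of the lists, Nfkbia lost its call for the genotype difference from 0 to 4 h (-0.997, adjusted p = 0.0687), and Ccl22 gained one in KO from 0 to 8 h (0.56, adjusted p = 0.0481). What depth limits cannot be given from TPM.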
